A study of Mus musculus with 6 samples.

Results

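The genes described here are the 7 CC chemokines Ccl2, Ccl6, Ccl7, Ccl8, Ccl9, Ccl12 and Ccl24 and the receptor gene Ccr2, chosen by symbol as 8 of the 32285 genes counted. They were measured by droplet-based 3′ single-cell RNA sequencing, in which each transcript caught in a droplet carries a unique molecular identifier (UMI). UMIs were summed per library over 5 classes of cells gated on fixed markers (monocytes, macrophages, dendritic cells, neutrophils and tumor cells), which hold 27876 of the 51633 cells that had at least 250 genes and at most 5% mitochondrial UMIs, out of 57078 cells in all.

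The study asked how blocking tumor glycans changes the response of ovarian tumors to an antibody against PD-L1, the immune checkpoint ligand. KPCA, a mouse ovarian cancer line with intact homologous recombination that carries mutant Trp53 and overexpresses Ccne1 and Akt2, was injected into the ovarian bursa of female C57BL/6 mice 6 to 8 weeks old. All 6 groups carry this same tumor line, and each group is 1 mouse and 1 library: a control, anti-PD-L1, 2DG, 2FF, and each inhibitor given together with the antibody, called the 2DG combination and the 2FF combination. Both inhibitors have the same control and the same anti-PD-L1 library, so that the comparisons below share them and are not independent of each other. 2FF (2-fluoro-L-fucose in the methods, 2F-Peracetyl-Fucose in the labels), an inhibitor of fucosylation, was given by oral gavage every 2 days, and the tumor cells had also been treated with it for 3 days before injection. 2DG (2-deoxy-D-glucose), used here against branched N-glycans, was injected into the peritoneum every 2 days from day 9. Anti-PD-L1 was given at 5 mg/kg, 2 times a week for 3 weeks after day 9, controls received solvent and rat IgG, and mice were sacrificed on day 30. By the labels the tissue is lymph node, and the design text of the series speaks of young and aged mice, whereas the methods describe tumors grown in the ovary. The gate for tumor cells, on keratin and epithelial markers, found 45 cells in all and none of the 9075 cells of the control library, so that no tumor cell level is given.

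Chemokines are small secreted proteins that direct migrating leukocytes, and their receptors are G protein-coupled. CCR2 on classical monocytes binds CCL2, CCL7 and CCL12 in the mouse, and this axis releases monocytes from bone marrow and draws them into tumors, where they become macrophages. The other ligands act mainly elsewhere: mouse CCL8 on CCR8, the eotaxin CCL24 on CCR3, and CCL6 and CCL9 on CCR1.

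The libraries held between 61859753 and 73885214 UMIs, and the control library stood apart. It held 3348 gated neutrophils against 269 to 488 in the 5 treated libraries, and 400 T cells against 1876 to 2978. In clusters of cells made without the member genes, 34.3% of control monocytes lay in a cluster led by Chil3 and Vcan and 32.1% in a cluster led by Cxcl3, Mt2 and Spp1, whereas each of these held at most 4.10% of the monocytes of any treated library. The treated monocytes lay more in a Stxbp6 and Ly6c2 cluster (18.5 to 27.9%, against 7.42% in the control) and in an Ace and Adgre4 cluster of non-classical type (7.86 to 20%, against 3.62%). Of the control macrophages 31.6% lay in a cluster led by Vcam1 and Cadm1 (treated 10.8 to 16.4%) and 5.82% in a cluster led by Mrc1, Pdcd1lg2 and C1qb (treated 21.4 to 48.0%). The ratios of the members in monocytes and macrophages that were past 2-fold against the control are therefore also given with the clusters of a class weighted alike in both libraries, which leaves out clusters with few cells in either. Pairs of libraries shared 12 to 27 cell barcodes. With 1 mouse per group, no test between treatments is possible. Intervals below are exact 95% intervals for counting error only, and the spread between mice is unknown. They treat UMIs as independent and leave out the spread between cells, so they are too narrow where few cells hold many UMIs.

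Levels are in CPM, the UMIs of a gene scaled to all UMIs of the class in that library, ratios are log2 of CPM plus a pseudocount of 5, and a ratio of at least 1 or at most -1 is called past 2-fold. Gated monocytes numbered 1533 to 2417 per library, macrophages 911 to 1596, dendritic cells 318 to 543. Of the gated monocytes 92.85% and of the gated macrophages 71.47% lay in a cluster of that same name. For macrophages this share was lowest in the control, at 527 of 911 cells. It was 820 of 1109 with 2DG, 1212 of 1596 with 2FF and 680 of 1003 with anti-PD-L1. In the combinations it was 984 of 1321 with 2DG and 923 of 1260 with 2FF. All 8 macrophage markers were present in the macrophages of every library, with summed levels of 7797 to 10100 CPM, against 393 to 628 CPM in monocytes. The gate picked the cells by these same markers, and the clusters were named from the same marker sets. Neither the cluster shares nor the marker levels are therefore a separate check of the classes.

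Of the 31 pairs of a member and a class with enough UMIs, 20 were past 2-fold between 2DG and control, 2 of them higher and 18 lower, where 5.34% of all genes of these classes were past it (2.61% higher and 2.73% lower). Between 2FF and control 16 of 32 pairs were past 2-fold, 6 higher and 10 lower, against a background of 5.74% (3% higher and 2.74% lower). Between anti-PD-L1 and control 13 of 31 pairs were past it, 1 higher and 12 lower, against 4.71% (2.61% higher and 2.1% lower). With clusters weighted alike, 3 of 28 pairs were higher and 7 lower with 2DG, and 2 of 28 higher and 6 lower with anti-PD-L1. With 2FF 7 of 30 were higher and 5 lower, so that the balance turned. The share of all genes past 2-fold with this weighting was 1.43% in monocytes and 1.16% in macrophages with 2DG. It was 1.66% and 1.79% with 2FF, and 1.5% and 1.62% with anti-PD-L1. The weighted counts also include dendritic cells and neutrophils, for which the weighted share is not given. Without weighting the share was highest in neutrophils, at 10.1% with 2DG, 9.97% with 2FF and 7.66% with anti-PD-L1. Without doublet-like cells 3 of 30 pairs were higher and 9 lower with 2FF. The shares among the members lay above the background, in the comparisons in which the make-up of the classes also differed most. The background, here and below, was not matched to the members by level. With the pseudocount of 5 CPM, genes near the limit of 50 UMIs could hardly pass 2-fold in monocytes and macrophages. The members were also chosen with earlier results of these data known. When the inhibitors were added to anti-PD-L1, 7 of 29 pairs passed with 2DG (5 higher and 2 lower, background 1.59%, with 0.91% higher and 0.68% lower) and 10 of 30 with 2FF (9 higher and 1 lower, background 1.09%, with 0.626% higher and 0.463% lower). These were 5 of 24 and 7 of 26 pairs with clusters weighted alike, none of them lower. The share of all genes with this weighting was 0.378% in monocytes and 0.8% in macrophages with 2DG. With 2FF it was 0.337% and 0.406%. Dendritic cells and neutrophils, which the counts include, are again left out of this share. When anti-PD-L1 was added to an inhibitor, 8 of 27 pairs passed with 2DG, all of them higher (background 1.78%, with 1.03% higher and 0.756% lower), and 2 of 30 with 2FF (1 higher and 1 lower, background 0.921%, with 0.466% higher and 0.455% lower).

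**Figure D1:**
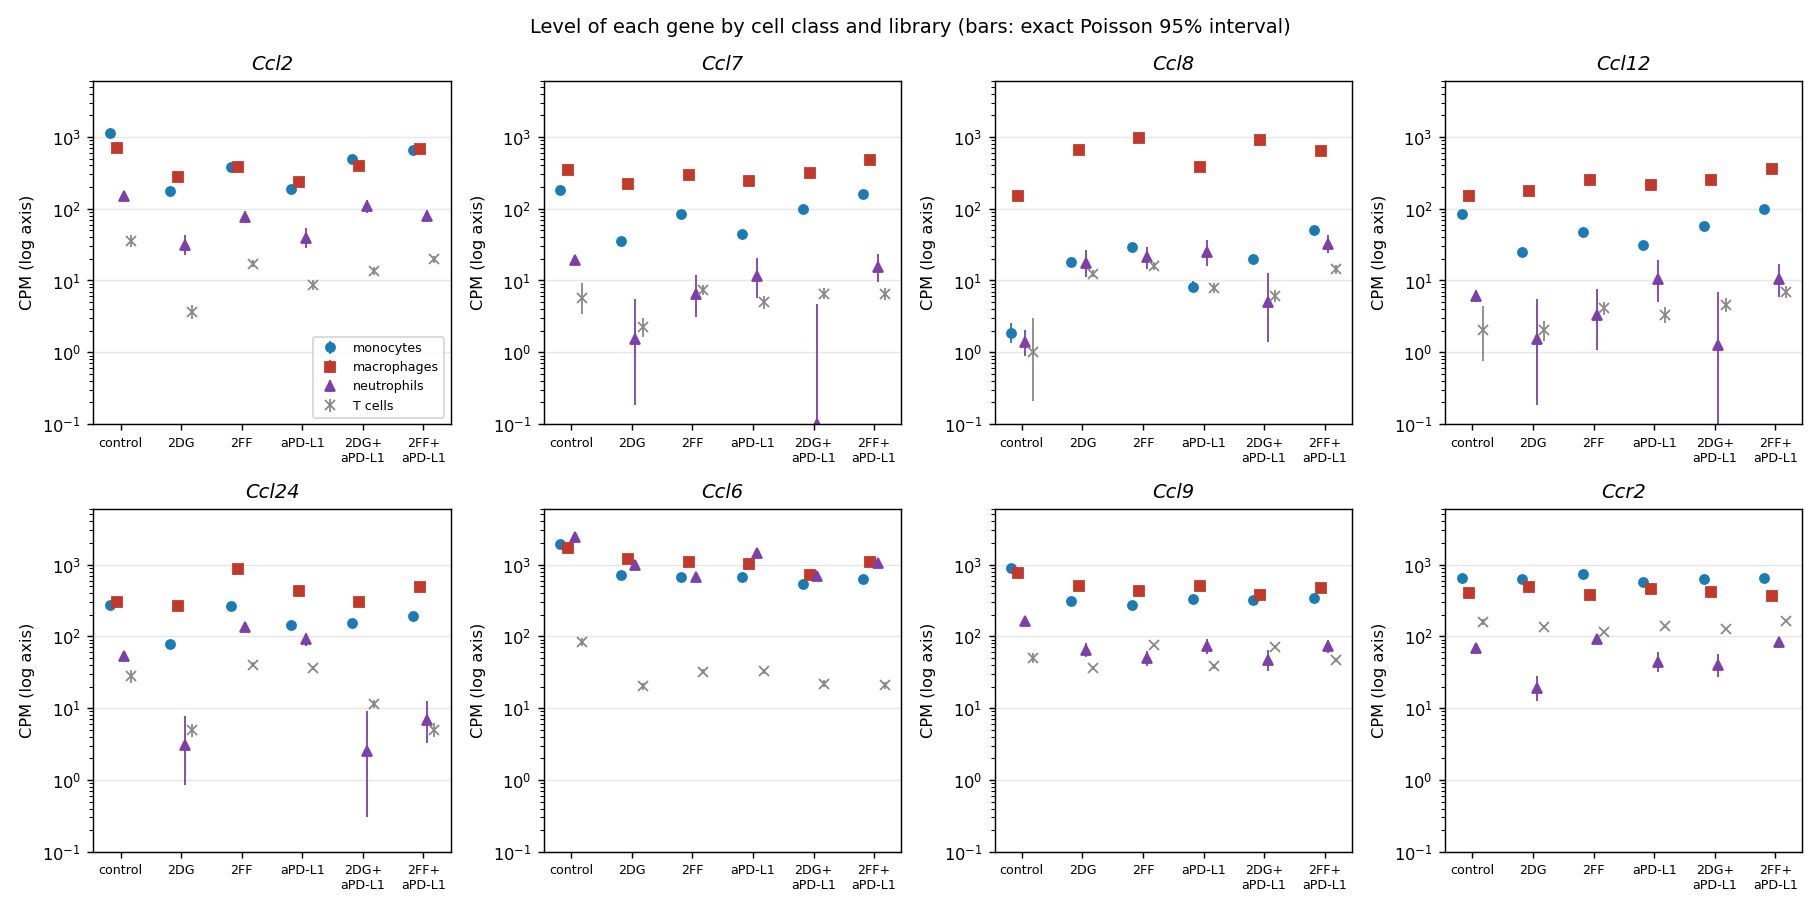
Level of each member in CPM on a log axis in the 6 libraries, for monocytes (blue circles), macrophages (red squares), neutrophils (purple triangles) and T cells as background (grey crosses); bars are exact 95% Poisson intervals, aPD-L1 is anti-PD-L1, and values of 0 sit at the lower edge. In monocytes Ccl2 was 1151 CPM in the control library and 178 to 667 CPM in the others, whereas in macrophages Ccl8 was 148 CPM in the control and 384 to 960 CPM in the others.

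Of the 8 members, 6 lie on mouse chromosome 11 in a pair of gene clusters, with coordinates on GRCm38. Ccl2 (chr11:82035571-82037453), Ccl7 (chr11:82045712-82047525), Ccl12 (chr11:82101845-82103400) and Ccl8 (chr11:82115185-82116799) follow each other on the plus strand within 81229 bases. Ccl9 (chr11:83572919-83578636) and Ccl6 (chr11:83587882-83593087) lie on the minus strand within 20169 bases. Ccl24 (chr5:135569937-135573049, minus strand) and Ccr2 (chr9:124101950-124113557, plus strand) lie apart. The neighbours Ccl12 and Ccl8 had different patterns over the libraries, and Ccl6 and Ccl9 similar ones, so the 120 bases before the start of each of these 4 genes are printed, 5′ to 3′ on the strand of the gene, from RefSeq on GRCm38.p6, which had a promoter for 5 of the 8 members. Capitals mark the TATA box, searched as the letters TATAAA, and the core CTTCC of ETS sites such as those of the myeloid factor PU.1, on either strand:
Ccl12 (chr11:82101725-82101844): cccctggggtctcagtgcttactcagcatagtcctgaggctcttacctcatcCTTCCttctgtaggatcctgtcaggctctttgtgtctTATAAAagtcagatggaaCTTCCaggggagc
Ccl8 (chr11:82115065-82115184): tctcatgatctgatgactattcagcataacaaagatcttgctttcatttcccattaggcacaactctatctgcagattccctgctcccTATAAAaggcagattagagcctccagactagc
Ccl6 (chr11:83593088-83593207): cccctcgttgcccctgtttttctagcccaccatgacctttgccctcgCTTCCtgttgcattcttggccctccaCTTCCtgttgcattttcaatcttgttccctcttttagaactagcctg
Ccl9 (chr11:83578637-83578756): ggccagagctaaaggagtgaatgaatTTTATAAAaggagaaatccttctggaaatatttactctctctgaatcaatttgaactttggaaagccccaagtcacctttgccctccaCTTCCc
The TATA box started 31 bases before the start of Ccl12 and 32 bases before that of Ccl8, and 6.76% of 27025 promoters held these letters in the same window. Ccl9 held it on both strands, overlapping, at 92 and 94 bases before its start, and Ccl6 had no match. The ETS core occurred 2 times before Ccl12, 2 times before Ccl6 and 1 time before Ccl9, and 41% of all promoters held it. It did not occur before Ccl8 or in the window of Ccr2. That RefSeq window (chr9:124102063-124102182) lies inside the Ccr2 span given above, not before it. TGANTCA, the AP-1 motif, occurred 1 time before Ccl9 and in 3.4% of promoters. The NF-kB motif, the C/EBP motif TTGCNNAA, the interferon-stimulated response element and the STAT motif TTCNNNGAA occurred in none of the 5 promoters on either strand, and in 0.433%, 4.16%, 1.21% and 3.2% of all promoters.

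Ccl2, the main CCR2 ligand, was highest in the control library in monocytes, lowest with 2DG or anti-PD-L1 alone, and in between with 2FF alone or with either combination. Monocytes held 1151 CPM in the control (interval 1137 to 1166), 178 with 2DG (170 to 186), 385 with 2FF (375 to 395), 189 with anti-PD-L1 (182 to 196), 489 with the 2DG combination (478 to 500) and 667 with the 2FF combination (656 to 678). The intervals of 2DG and anti-PD-L1 overlap, and those of the other libraries lie apart. Monocyte Ccl2 was thus 6.47-fold lower with 2DG than in the control (log2 ratio -2.66) and 6.08-fold lower with anti-PD-L1 (-2.57). It was 2.58-fold higher with the 2DG combination than with anti-PD-L1 alone (1.35) and 3.52-fold higher with the 2FF combination (1.79).

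The share of monocytes with a Ccl2 UMI moved in the same order. It was 65.9% in the control, 34.8% with 2DG, 46.5% with 2FF, 40.9% with anti-PD-L1, 55.4% with the 2DG combination and 57.9% with the 2FF combination. After each cell was thinned to 1000 UMIs these shares were 38.1, 11.7, 19.8, 13.5, 25.2 and 28.8%. T cells, which should lack the gene and give the level of free RNA, stood at 0.209 to 2.54% after the same thinning, with the highest share in the control, at median depths of 5708 to 7526 UMIs against 6467 to 10328 in monocytes.

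Classical monocytes, gated on Ly6c2, Chil3 and like markers, carried most of this. Their Ccl2 was 1200 CPM in the control, 221 with 2DG, 440 with 2FF, 216 with anti-PD-L1, 559 with the 2DG combination and 735 with the 2FF combination. Non-classical monocytes, the patrolling cells gated on Ace, Treml4 and like markers, stood at 76.8 CPM in the control and at 56.3 to 173 CPM in the treated libraries, highest in the 2 combinations.

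In macrophages too Ccl2 was lowest with anti-PD-L1 or 2DG alone. It was 691 CPM in the control (675 to 706), 280 with 2DG (270 to 290), 386 with 2FF (376 to 395), 233 with anti-PD-L1 (224 to 243), 394 with the 2DG combination (383 to 405) and 678 with the 2FF combination (663 to 692). The control and the 2FF combination overlap in their intervals, as do 2FF and the 2DG combination. Macrophage Ccl2 was past 2-fold for 2DG against control (-1.29, or -1.17 weighted alike), for anti-PD-L1 against control (-1.54, or -1.02) and for the 2FF combination against anti-PD-L1 (1.52, or 1.58), and it was not for the 2DG combination against anti-PD-L1 (0.74, or 0.99).

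The ratios of monocyte Ccl2 against the control were smaller in size with the clusters weighted alike, and the part of the weighting was not separated from that of the clusters left out. The log2 ratio of monocyte Ccl2 was -1.26 for 2DG against control in place of -2.66, over clusters that hold 60.6% of the control monocytes. It was -1.58 for anti-PD-L1 against control in place of -2.57, over 92.7% of the control monocytes, and -0.33 for 2FF against control in place of -1.57, over 96.2% of them. Against anti-PD-L1 alone the weighting moved it less, to 1.32 for the 2DG combination and to 1.41 for the 2FF combination.

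Over the 15 clusters of monocytes and macrophages, Ccl2 was higher with the 2DG combination than with anti-PD-L1 in 15 of 15, 8 of them past 2-fold, and higher with the 2FF combination in 15 of 15, 10 past 2-fold. In the Stxbp6 and Ly6c2 cluster, for example, it was 132 CPM with anti-PD-L1, 326 with the 2DG combination and 296 with the 2FF combination. Against the control, Ccl2 was lower with 2DG in 12 of 15 clusters (7 past 2-fold) and lower with anti-PD-L1 in 11 (8 past 2-fold). With 2FF it was higher in 8 of the 15 and lower in 7. The share of all genes past 2-fold was not computed for single clusters, here or below. The Cxcl3, Mt2 and Spp1 cluster, which held 709 control monocytes and 15 to 99 of each treated library, had 1649 CPM of Ccl2 in the control, 410 with 2DG, 837 with 2FF, 659 with anti-PD-L1, 1652 with the 2DG combination and 1756 with the 2FF combination. The control and the 2 combinations thus stood at like levels within that cluster.

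**Figure D2:**
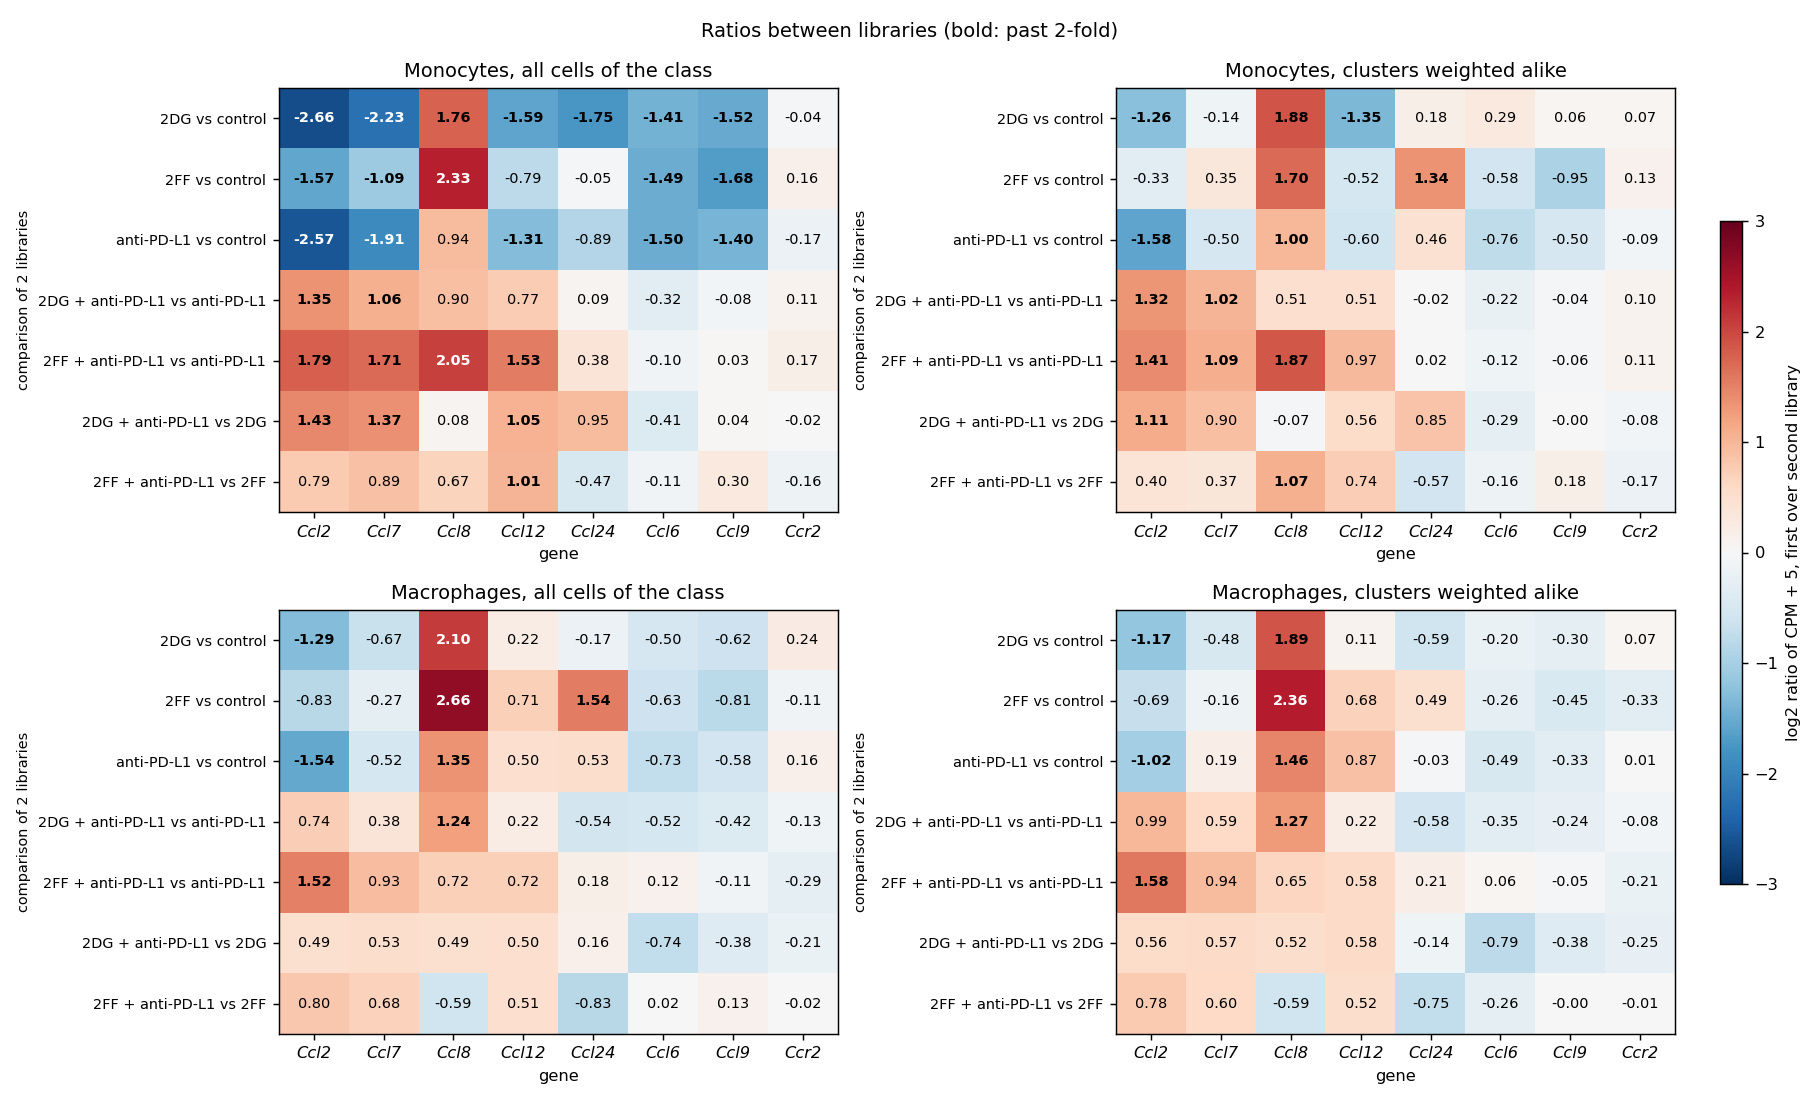
Log2 ratios of CPM plus 5 for the 8 members in the 7 comparisons, in monocytes and in macrophages, over all cells and with clusters weighted alike; bold marks a ratio of at least 1 or at most -1. Ccl2 in monocytes was -2.66 for 2DG against control over all cells and -1.26 with clusters weighted alike, whereas Ccl8 in macrophages was 2.10 and 1.89.

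Ccl7, a further CCR2 ligand, followed Ccl2 in monocytes. It was 183 CPM in the control (177 to 189), 35.1 with 2DG (31.8 to 38.7), 83.1 with 2FF (78.5 to 87.8), 44.9 with anti-PD-L1 (41.6 to 48.3), 98.7 with the 2DG combination (93.9 to 104) and 158 with the 2FF combination (153 to 164). The 6 intervals lie apart, with the control on top. The log2 ratios against the control were -2.23 with 2DG, -1.09 with 2FF and -1.91 with anti-PD-L1, but with the clusters weighted alike they were -0.14, 0.35 and -0.50. Against anti-PD-L1 alone, monocyte Ccl7 was higher with the 2DG combination (1.06, or 1.02 weighted alike) and with the 2FF combination (1.71, or 1.09). In macrophages Ccl7 was 219 to 469 CPM, highest with the 2FF combination, and none of the 7 comparisons passed 2-fold. Without the cells of the Vcam1 and Cadm1 cluster and of a cluster led by Mgl2 and Ccl17, the control was highest, at 512 CPM against 480 CPM with the 2FF combination, and Ccl7 passed 2-fold for 2DG against control (203 CPM, -1.32) and just reached it for 2FF (253 CPM).

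Ccl12, the mouse CCR2 ligand that lies next to Ccl8, differed between the 2 classes. In monocytes it was 85.4 CPM in the control (81.6 to 89.3), 25 with 2DG (22.2 to 28), 47.3 with 2FF (43.9 to 50.9), 31.4 with anti-PD-L1 (28.7 to 34.4), 57.0 with the 2DG combination (53.4 to 60.8) and 100 with the 2FF combination (96.2 to 105). In macrophages it was lowest in the control, at 149 CPM (142 to 156), then 174 with 2DG (166 to 182), 247 with 2FF (239 to 254), 213 with anti-PD-L1 (204 to 223), 249 with the 2DG combination (240 to 257) and 355 with the 2FF combination (344 to 365). The control was thus the second highest library in monocytes and the lowest in macrophages. The monocyte ratios passed 2-fold for 2DG against control (-1.59, or -1.35 weighted alike) and anti-PD-L1 against control (-1.31, or -0.60). They also passed it for the 2FF combination against anti-PD-L1 (1.53, or 0.97) and for the addition of anti-PD-L1 to 2DG (1.05, or 0.56) and to 2FF (1.01, or 0.74). No macrophage ratio of Ccl12 passed it.

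The 3 CCR2 ligands were found in the same cells. In macrophages the odds of a Ccl7 UMI in cells with a Ccl2 UMI were 5.80 to 9.50 times those in cells without, across the 6 libraries, and the odds ratio of Ccl7 and Ccl12 was 3.49 to 5.59. In monocytes the odds ratio of Ccl2 and Ccl7 was 5.63 to 9.46. The cells of a library differ in depth, which by itself raises such ratios, and its part was not tested.

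Ccl8, a ligand of CCR8 in the mouse, went the other way from Ccl2 against the control, and it lay mainly in macrophages. Macrophages held 74.8 to 90.0% of the Ccl8 UMIs of each library. Their level was 148 CPM in the control (141 to 155), 651 with 2DG (636 to 667), 960 with 2FF (945 to 975), 384 with anti-PD-L1 (371 to 397), 914 with the 2DG combination (898 to 931) and 634 with the 2FF combination (621 to 648). Every treated library lay above the control, and 2DG and the 2FF combination overlap in their intervals. Macrophage Ccl8 was 6.49-fold higher with 2FF than in the control (log2 ratio 2.66), 4.40-fold with 2DG (2.10) and 2.59-fold with anti-PD-L1 (1.35). With clusters weighted alike these log2 ratios were 2.36, 1.89 and 1.46. Adding 2DG to anti-PD-L1 gave 1.24 (1.27 weighted alike), and adding 2FF gave 0.72, which did not pass 2-fold.

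The share of macrophages with a Ccl8 UMI was 20.6% in the control and 41.9% with 2DG, 40.2% with 2FF, 30.6% with anti-PD-L1, 35.3% with the 2DG combination and 42.8% with the 2FF combination. Thinned to 1000 UMIs a cell it was 7.25, 20.9, 22.1, 13.6, 19.6 and 20.7%, against 0.110 to 1.28% in T cells. The gene was uneven among macrophages: the 1% of cells with the most Ccl8 held 49.9% of its UMIs in the control and 23.7 to 33.0% in the treated libraries.

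The highest Ccl8 lay in a macrophage cluster led by Cd72, Cd63 and Cd81, with Apoe and the proliferation genes Stmn1 and Top2a among its leading genes. This cluster held 6.7% of the control macrophages and 6.43 to 19.3% of those of the treated libraries. Ccl8 was 781 CPM there in the control, 3532 with 2DG, 5383 with 2FF, 2263 with anti-PD-L1, 4138 with the 2DG combination and 4388 with the 2FF combination. In the Mrc1, Pdcd1lg2 and C1qb cluster it was 201, 695, 1053, 228, 1299 and 873 CPM in the same order. In the Vcam1 and Cadm1 cluster it was 259, 1131, 1595, 852, 725 and 388 CPM. Against the control Ccl8 was higher in each cluster of monocytes and macrophages with enough UMIs: 8 of 8 with 2DG (7 past 2-fold), 7 of 7 with 2FF (6) and 6 of 6 with anti-PD-L1 (4). The cells of a cluster were not split by class for these counts. A cluster was counted where the 2 libraries together held 50 UMIs, so clusters low in Ccl8 could enter mainly through the treated library. Free RNA of Ccl8, read from T cells, was lowest in the control too. The counts are therefore not read as expression in each cluster.

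Cadm1 and Mgl2, which lead a pair of these macrophage clusters, are also markers of dendritic cells. Without the cells of the Vcam1 and Cadm1 cluster and of the Mgl2 and Ccl17 cluster, macrophage Ccl8 was 89.3 CPM in the control, 547 with 2DG, 865 with 2FF and 278 with anti-PD-L1, for log2 ratios of 2.55, 3.21 and 1.58 against the control. Macrophage Ccl2 without these cells was 1053 CPM in the control, 288 with 2DG, 362 with 2FF and 253 with anti-PD-L1, for log2 ratios of -1.85, -1.53 and -2.04. The 2FF value was past 2-fold without these clusters and not with them (-0.83). For the 2FF combination against anti-PD-L1, macrophage Ccl8 was 1.38 without them and 0.72 with them.

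Monocyte Ccl8 was low. It was less than 2-fold above the level in T cells, which stands for free RNA, in 4 libraries and over 3-fold above it in the 2 combinations. It was 1.87 CPM in the control, 18.3 with 2DG, 29.6 with 2FF, 8.20 with anti-PD-L1, 19.7 with the 2DG combination and 49.8 with the 2FF combination. T cells of the same libraries had 1.02, 12.5, 15.9, 7.88, 6.13 and 14.3 CPM. The ratios of monocyte Ccl8 past 2-fold against the control (1.76 with 2DG and 2.33 with 2FF, or 1.88 and 1.70 weighted alike) are therefore not read as expression by monocytes. The largest gap to T cells was in the 2FF combination, where the ratio of monocyte Ccl8 against anti-PD-L1 alone was 2.05 and the thinned share of cells with a UMI was 2.27% in monocytes and 1.28% in T cells.

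**Figure D3:**
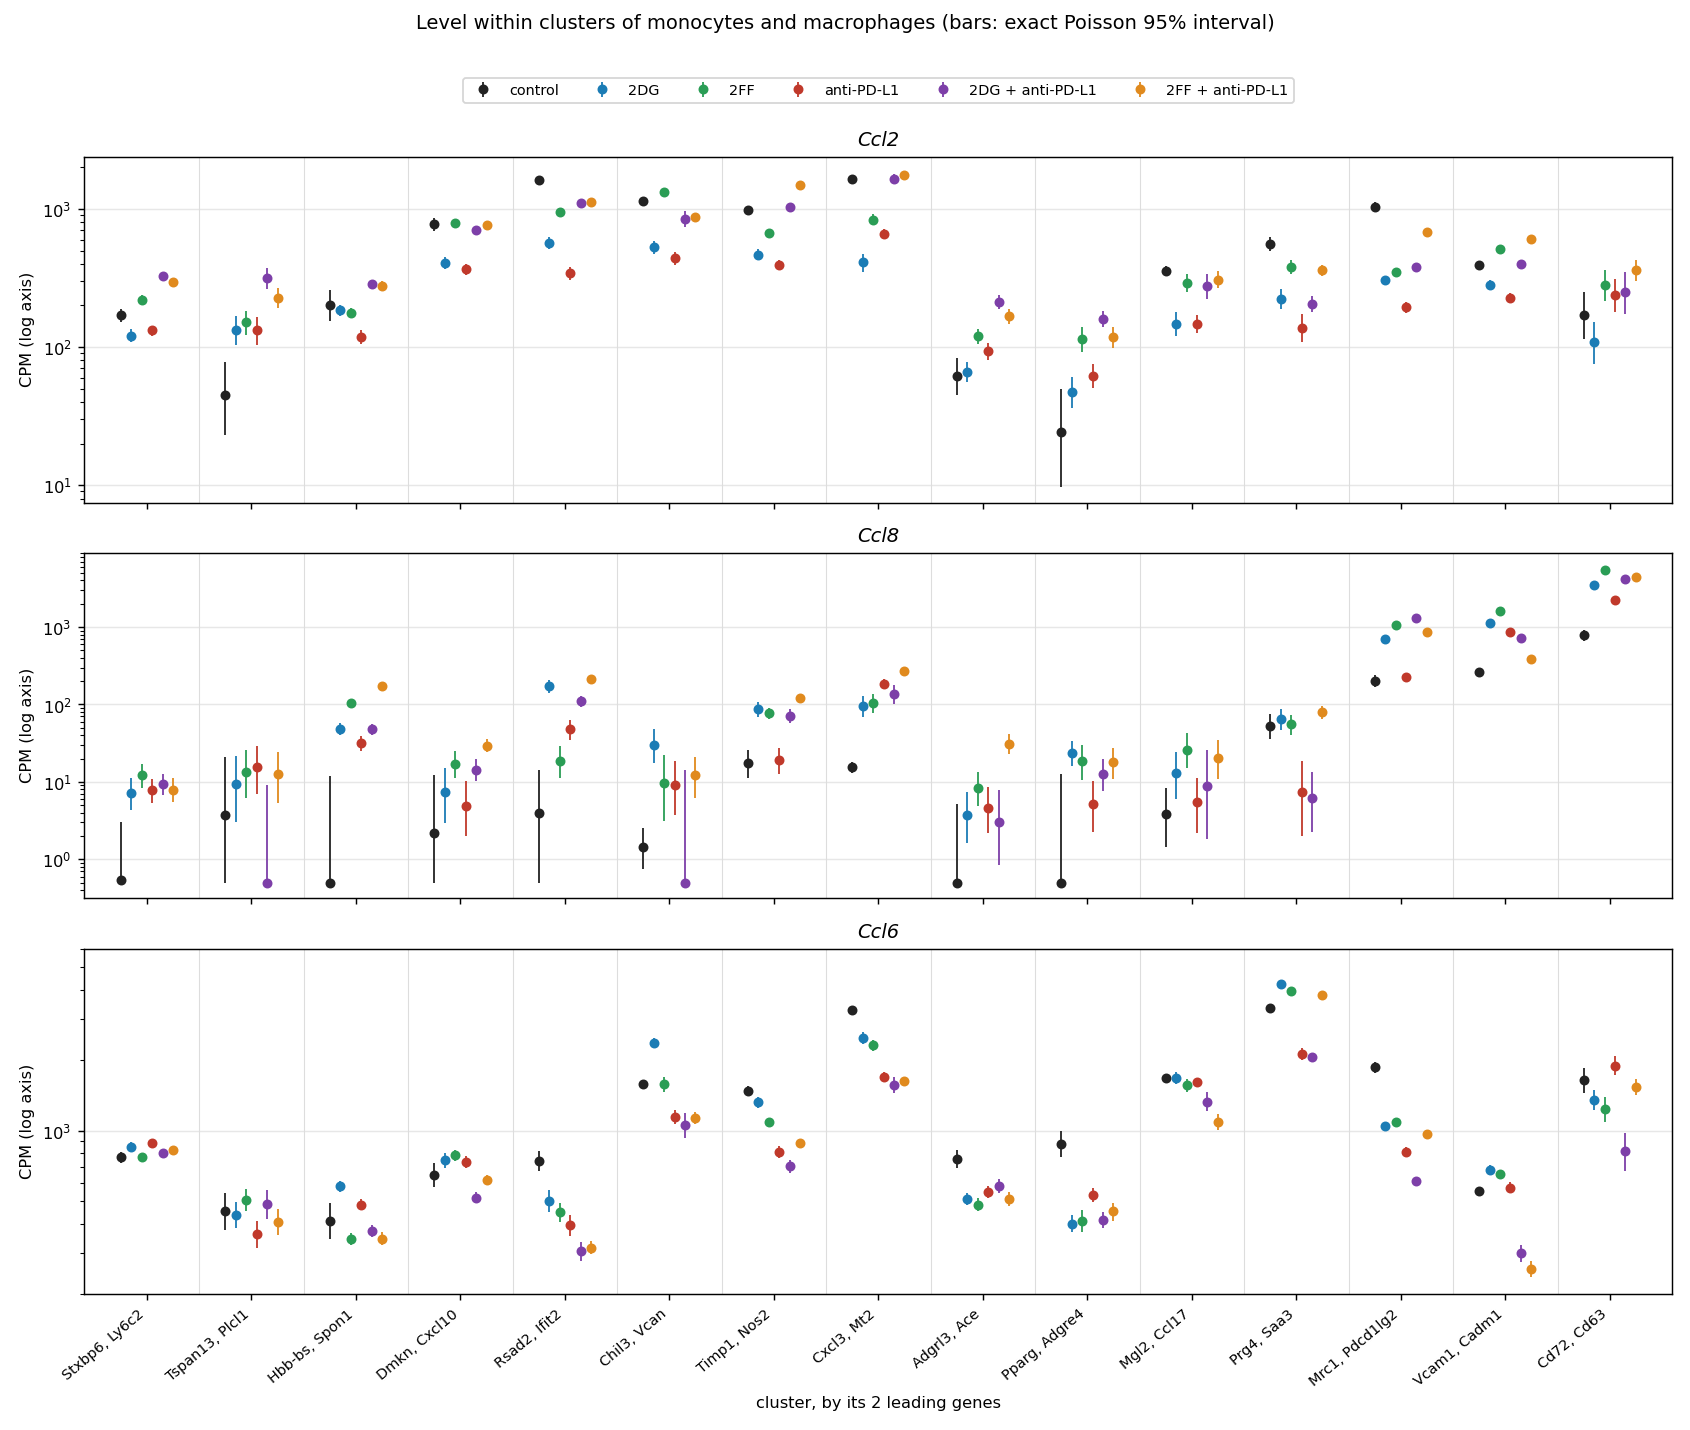
CPM of Ccl2, Ccl8 and Ccl6 on a log axis in the 15 clusters of monocytes and macrophages, each named by 2 leading genes, with 1 point per library and bars for the exact 95% Poisson interval; values of 0 sit at the low end of the Ccl8 panel. Ccl8 reached 5383 CPM in the Cd72, Cd63 and Cd81 cluster of the 2FF library, and Ccl6 in the Ly6c2 cluster lay between 770 and 885 CPM in the 6 libraries.

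Ccl24, an eotaxin that attracts eosinophils through CCR3, stood out with 2FF alone in macrophages. It was 297 CPM in the control (287 to 308), 265 with 2DG (255 to 274), 872 with 2FF (858 to 887), 433 with anti-PD-L1 (420 to 446), 297 with the 2DG combination (288 to 306) and 490 with the 2FF combination (478 to 502). The control and the 2DG combination overlap in their intervals. The 2FF library was 2.93-fold above the control (log2 ratio 1.54), but the ratio was 0.49 with clusters weighted alike and 0.59 without the Vcam1 and the Mgl2 cluster. Without these clusters the ratio of 2DG against control was -1.09 in place of -0.17. Few cells carried most of it: the top 1% of macrophages held 25.4 to 52.3% of its UMIs. In single clusters, with monocytes and macrophages together, it was higher with 2FF than in the control in 10 of 12, 8 of them past 2-fold. One of the exceptions was the Mrc1, Pdcd1lg2 and C1qb cluster, with 1028 CPM with 2FF and 1088 CPM in the control.

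In monocytes Ccl24 was 275 CPM in the control (268 to 281), 78.0 with 2DG (73.0 to 83.2), 266 with 2FF (257 to 274), 146 with anti-PD-L1 (140 to 152), 155 with the 2DG combination (149 to 161) and 190 with the 2FF combination (184 to 196). The control and 2FF overlap in their intervals and 2DG was lowest. The 2DG ratio against control of -1.75 was 0.18 with the clusters weighted alike, over clusters that hold 60.6% of the control monocytes. For 2FF against control the ratio was -0.05, or 1.34 weighted alike.

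Ccl6 and Ccl9, neighbouring genes for CCR1 ligands that myeloid cells make without strong stimulation, were highest in the control in monocytes and macrophages. Monocyte Ccl6 was 1922 CPM in the control (1904 to 1940), 721 with 2DG (705 to 736), 682 with 2FF (669 to 696), 678 with anti-PD-L1 (665 to 691), 543 with the 2DG combination (531 to 554) and 633 with the 2FF combination (622 to 644). Monocyte Ccl9 was 897 CPM in the control (884 to 909), 309 with 2DG (299 to 320), 277 with 2FF (269 to 286), 337 with anti-PD-L1 (328 to 346), 318 with the 2DG combination (309 to 326) and 343 with the 2FF combination (335 to 351). For both genes the control lay far above a narrow band of treated libraries.

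The log2 ratios of monocyte Ccl6 against the control were -1.41 with 2DG, -1.49 with 2FF and -1.50 with anti-PD-L1, and those of Ccl9 were -1.52, -1.68 and -1.40. With the clusters weighted alike they were 0.29, -0.58 and -0.76 for Ccl6 and 0.06, -0.95 and -0.50 for Ccl9, none past 2-fold. Within single clusters, with monocytes and macrophages together, Ccl6 was past 2-fold against the control in 1 of 15 for each treatment. In the Stxbp6 and Ly6c2 cluster Ccl6 was 770 CPM in the control, 855 with 2DG, 771 with 2FF, 885 with anti-PD-L1, 803 with the 2DG combination and 827 with the 2FF combination. The Cxcl3, Mt2 and Spp1 cluster, where 32.1% of the control monocytes lay, had 3267 CPM of Ccl6 in the control and 1572 to 2490 CPM in the treated libraries.

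Macrophage Ccl6 was 1689 CPM in the control and 709 to 1190 CPM in the treated libraries, and macrophage Ccl9 was 765 CPM in the control and 380 to 511 CPM, with no ratio past 2-fold in the 7 comparisons. Without the Vcam1 and the Mgl2 cluster, the ratios against the control were -1.05 with 2DG, -1.22 with 2FF and -1.36 with anti-PD-L1 for Ccl6, and -0.99, -1.21 and -0.97 for Ccl9, so that 4 of these 6 passed 2-fold. The share of all genes past it was not computed for that set of cells. Neutrophils held 2447 CPM of Ccl6 in the control and 661 to 1441 CPM in the treated libraries. With their larger number, neutrophils held 31.5% of the Ccl6 UMIs of the control library, against 2.5 to 4.96% in the others. Ccl6 and Ccl9 occurred in the same macrophages, with odds ratios of 5.32 to 7.87.

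Ccr2, the receptor itself, was the member that differed least between the libraries in monocytes and macrophages. Monocyte Ccr2 was 653 CPM in the control (642 to 663), 634 with 2DG (620 to 649), 732 with 2FF (719 to 746), 580 with anti-PD-L1 (568 to 592), 626 with the 2DG combination (614 to 639) and 654 with the 2FF combination (643 to 665). The 7 log2 ratios in monocytes lay between -0.17 and 0.17, and those in macrophages between -0.29 and 0.24. With clusters weighted alike those of monocytes against the control were 0.07 with 2DG, 0.13 with 2FF and -0.09 with anti-PD-L1. Macrophage Ccr2 was 370 to 480 CPM, highest with 2DG and lowest with the 2FF combination. In neutrophils Ccr2 was 68.2 CPM in the control, 19.2 with 2DG and 40.2 to 92.1 CPM in the other libraries, past 2-fold for 2DG against control (-1.59, or -0.74 without doublet-like cells), where the 2DG value rests on 25 UMIs.

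Ccr2 differed between kinds of monocytes and macrophages. Classical monocytes had 659 to 796 CPM and non-classical monocytes 200 to 453 CPM, with the highest non-classical value in the control. Among clusters the Chil3 and Vcan cluster held 857 to 1161 CPM and the Cd72, Cd63 and Cd81 cluster, where Ccl8 was highest, 73.8 to 228 CPM. Macrophages with a Ccl8 UMI had a Ccr2 UMI in 42.6 to 53.5% of cells, against 66.9 to 79.5% of the macrophages without, for odds ratios of 0.260 to 0.387. Ccl2 and Ccl8 had odds ratios near 1 in macrophages, from 0.875 to 1.43. T cells, some of which carry CCR2, held 115 to 165 CPM, and NK cells 182 to 284 CPM.

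Counted per cell, the 5 ligands Ccl2, Ccl7, Ccl8, Ccl12 and Ccl24 were absent from 27.5% of control monocytes, 56.7% with 2DG, 44.0% with 2FF, 50.5% with anti-PD-L1, 37.6% with the 2DG combination and 32.9% with the 2FF combination. Macrophages without any of the 5 were 16.8, 17, 14.2, 20.6, 18.2 and 11.7% in the same order. Macrophages with a UMI of all 5 were 0.549% in the control and 2.80, 5.20, 2.19, 3.1 and 4.21% in the treated libraries. The control thus had the fewest macrophages with all 5 ligands and the fewest monocytes with none. These shares were not thinned to equal depth, and control cells were the deepest in both classes. Median UMIs per monocyte were 10328 in the control and 6467 to 8096 in the treated libraries, and per macrophage 12631 and 9021 to 10084.

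**Figure D4:**
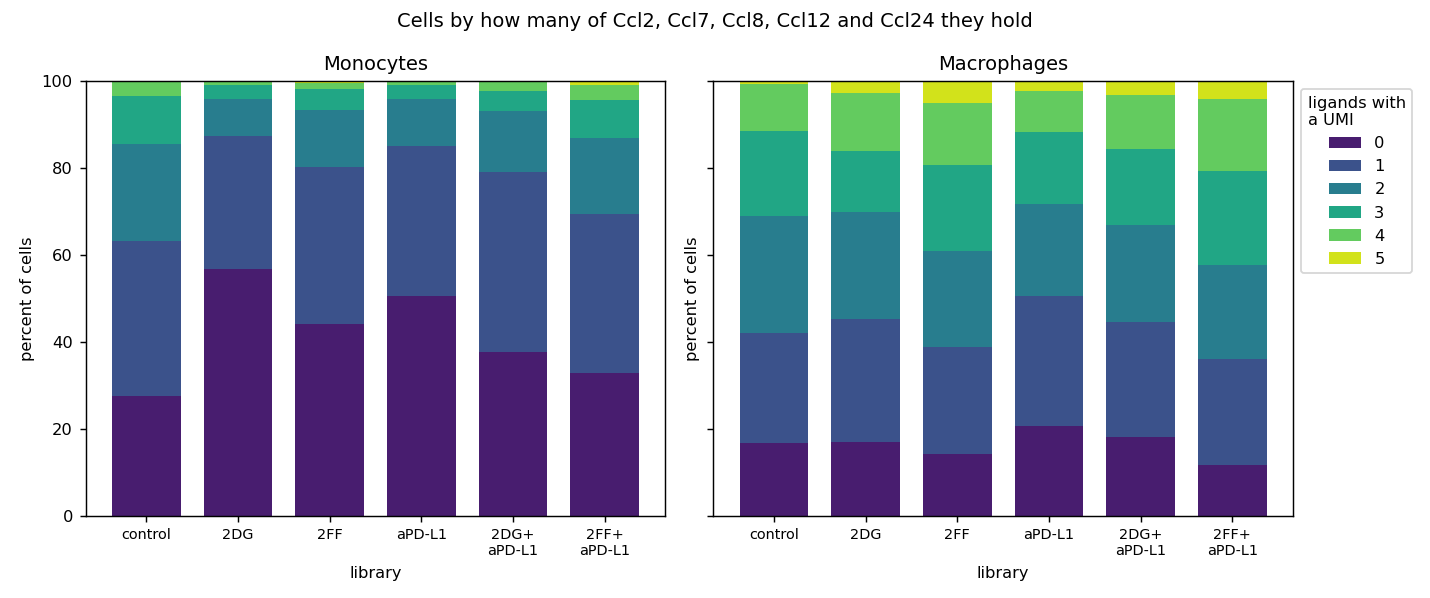
Percent of monocytes and of macrophages in each library with a UMI of 0 to 5 of the ligands Ccl2, Ccl7, Ccl8, Ccl12 and Ccl24, as stacked bars. Monocytes with none were 27.5% in the control and 56.7% with 2DG, and macrophages with all 5 were 0.549% in the control and 5.20% with 2FF.

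In monocytes, 7 of 8 members passed 2-fold between 2DG and control, where 6.97% of all genes did, 5 of 8 between 2FF and control (5.88%) and 5 of 8 between anti-PD-L1 and control (5.95%). For the 2DG combination against anti-PD-L1, 2 of 8 members passed (Ccl2 and Ccl7), where 0.373% of all genes did. For the 2FF combination against anti-PD-L1, 4 of 8 passed (Ccl2, Ccl7, Ccl8 and Ccl12), against 0.639%. Leaving out Ccl8, which was near free RNA in most libraries, 6 of the other 7 members passed for 2DG and 4 of 7 for 2FF against control, and 3 of 7 for the 2FF combination against anti-PD-L1. For the addition of anti-PD-L1, 3 of 8 passed with 2DG (0.834%) and 1 of 8 with 2FF (0.353%). In macrophages 2 of 8 members passed for each of 2DG (2.63%), 2FF (3.81%) and anti-PD-L1 (2.47%) against control, 1 of 8 for the 2DG combination against anti-PD-L1 (1.18%), 1 of 8 for the 2FF combination against anti-PD-L1 (0.608%) and none when anti-PD-L1 was added to 2DG (0.859%) or 2FF (0.445%). Without the Vcam1 and the Mgl2 cluster 5 of 8 passed for 2DG, 5 for 2FF and 3 for anti-PD-L1 against control. The share of all genes past 2-fold was not computed for that set of cells, so these counts have no background. By direction, the share of all genes past 2-fold against control in monocytes was 3.79% higher and 3.18% lower with 2DG, 3.48% and 2.4% with 2FF, and 3.51% and 2.44% with anti-PD-L1. In macrophages it was 1.22% higher and 1.41% lower with 2DG, 1.66% and 2.15% with 2FF, and 1.31% and 1.16% with anti-PD-L1.

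Dendritic cells held less Ccl2 than monocytes in each library. It was 120 CPM in the control, 14.5 with 2DG, 39.1 with 2FF, 25 with anti-PD-L1, 63.5 with the 2DG combination and 64.0 with the 2FF combination, the same order as in monocytes. Summed macrophage markers in dendritic cells were 340, 184, 378, 332, 329 and 328 CPM, lowest with 2DG like Ccl2, and their part in the result was not tested. Ccl6 in dendritic cells was 394 CPM in the control and 95.8 to 166 CPM in the treated libraries. Ccl24 there was 39.4 to 201 CPM, with 62.8 to 96.0% of its UMIs in the top 1% of the cells. In neutrophils Ccl2 was 152 CPM in the control and 31.6 to 108 CPM in the treated libraries.

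Among the receptors of these ligands, Ccr1, which binds CCL6, CCL7 and CCL9, had an order over the libraries like that of Ccl2 in monocytes. It was 502 CPM in the control, 193 with 2DG, 310 with 2FF, 211 with anti-PD-L1, 328 with the 2DG combination and 470 with the 2FF combination. Of the receptors other than Ccr2, 2 of 6 had enough UMIs, and 1, Ccr1, passed 2-fold for 2DG and for anti-PD-L1 against control, lower in both.

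Of the other CC chemokines, 5 of 12 had enough UMIs in monocytes against the control, and for each of the 3 treatments 1 was higher and 1 lower. Ccl5, a T cell and macrophage chemokine, was 41.4 CPM in control monocytes and 252 to 487 CPM in the treated ones, and 94.9 CPM in control macrophages and 513 to 1203 CPM in the treated ones. Summed T cell markers in monocytes were 11.8 CPM in the control and 36.0 to 89.2 CPM in the treated libraries, lowest in the control as Ccl5 was, and their part in it was not tested. Ccl3, which binds CCR1, was 299 CPM in control monocytes and 73.8 to 211 CPM in the treated ones.

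Of 11 genes of the chain that carries the signal from Ccr2, all with enough UMIs in monocytes, 1 was past 2-fold higher with 2DG, 0 with 2FF and 2 with anti-PD-L1 against control, none lower, where 3.79%, 3.48% and 3.51% of all genes were higher. Median log2 ratios were 0.26, 0.25 and 0.25, against 0.13, 0.10 and 0.11 for all genes. Grk2, a kinase that turns off chemokine receptors, was 75.8 CPM in the control, 157 with 2DG and 171 with anti-PD-L1. In macrophages none of the 11 passed in any of the 7 comparisons.

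Genes of Spp1 tumor macrophages went with the control in monocytes: 6 of 8 were past 2-fold lower with 2DG, with 2FF and with anti-PD-L1, 1 was higher, and the median log2 ratios were -2.22, -1.59 and -1.86. Spp1, osteopontin, was 2891 CPM in control monocytes and 226 to 841 CPM in the treated ones. Arg1, the arginase of suppressive myeloid cells, was 4522 CPM in the control and 796 to 1714 CPM. Fabp5, a fatty acid carrier, was the gene that was higher, at 295 CPM in the control and 617 to 1102 CPM. In macrophages 4, 2 and 3 of the 8 were past 2-fold lower with 2DG, 2FF and anti-PD-L1, and 1 higher each time.

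Of 10 genes of tissue-resident macrophages, 9 had enough UMIs in macrophages against the control, and 1 was past 2-fold lower with 2DG, 3 with 2FF and 4 with anti-PD-L1, where 1 was higher. Pf4, itself a chemokine, was 802 CPM in control macrophages and 182 to 312 CPM in the treated ones. Folr2, a folate receptor of resident macrophages, was 21.5 to 43.4 CPM with no ratio past 2-fold.

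Among 12 of 14 other genes of the myeloid response with enough UMIs, 3 were past 2-fold higher in monocytes with 2DG, 2 with 2FF and 3 with anti-PD-L1 against control, and none lower. Irf1, a transcription factor of the interferon response, was among them. It was 134 CPM in control monocytes and 402 to 579 CPM in the treated ones. Il1b, an inflammatory cytokine, was 875 CPM in the control, 934 with 2DG, 1359 with 2FF, 913 with anti-PD-L1, 1782 with the 2DG combination and 1447 with the 2FF combination.

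Some other values moved with the libraries. Summed neutrophil markers in macrophages were 681 CPM in the control and 210 to 254 CPM in the treated libraries, and in monocytes 2019, 1886, 887, 910, 1217 and 1518 CPM. A list of 10 genes that respond early to tissue dissociation, such as Fos, summed to 8116 to 9863 CPM in monocytes, with 8700 CPM in the control. In macrophages it summed to 8623 CPM in the control, 6552 with 2DG, 6922 with 2FF, 6411 with anti-PD-L1, 10475 with the 2DG combination and 8639 with the 2FF combination, low in the 3 single treatments as macrophage Ccl2 was. The part of these values in the results was not tested.

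The genes most like each member were sought over 29 points of library and class, among 10329 genes. The points include the tumor cell class of each treated library, with 2 to 16 cells, many of them doublet-like. Ccl7 and Ccl12 were most like each other (Pearson's r of log2 levels 0.97), and Lgmn, a lysosomal protease, was next for both (0.94). Ccl8 came with Gng11 (0.89), Folr2 (0.87) and Ch25h (0.87), and Ccl24 with Arg1, Ctsz and Adap2 (0.93 each). Ccl6 came with Tcn2 (0.97), Ccl9 with Msr1 (0.96), Ccr2 with Ms4a6c (0.98) and Ccl2 with Gm15655 (0.90) and the complement receptor gene C3ar1 (0.89). The points share libraries and classes, which were not separated, and the values are descriptions.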

How the data were processed

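Cells were profiled with the Chromium 3' kit, 1 library per group. Per the labels and the study's methods, the authors aligned reads to mm10 and deposited unnormalized UMI counts per gene and cell from Cell Ranger (7.0.0 in the methods and file headers, 3.1.0 in the submitters' processing notes). The authors' limits of 250 genes and 5% mitochondrial UMIs were applied. A cell took the class whose 8 markers had the highest mean score, if it led the next class by 0.05 and at least 3 markers were detected. No member is a marker. The 3847 doublet-like cells kept were left out in an alternative. UMIs were summed per class and library. Ratios needed 50 UMIs in both libraries together and 50 cells in each, the latter set after the data were seen. Intervals are exact Poisson intervals. No test was run, since no group has replicates. Cells were thinned by the exact expected detection at 1000 UMIs. Clusters were Leiden clusters made without the members. Sequences were read from RefSeq promoters of GRCm38.p6, and coordinates from a GRCm38 gene annotation. Ratios were tested on simulated data. The members and gene lists were chosen with earlier results of these data known. The 8 members, genes of the fixed lists with values in monocytes or macrophages, and the 3 most alike genes were named, while the dissociation list and 2 alternatives were added after the data were seen. Versions were Python 3.11.15, numpy 2.4.6, scipy 1.17.1, pandas 2.3.3, scanpy 1.11.5 and matplotlib 3.10.9. Some genes of these lists are not reported here.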

Additional observations from a re-analysis of the deposited data

Results flagged for a closer look

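For 7 pairs of gene and class, adding anti-PD-L1 gave a ratio past 2-fold lower without an inhibitor and past 2-fold higher with 2DG. Pairs with enough UMIs were 31 without an inhibitor and 27 with 2DG. The share of all genes with such opposite ratios was not computed, so the count of 7 has no background. All are log2 ratios of 1 library each. These differences were not tested, since each group is 1 mouse, and the ratio without an inhibitor rests on the control library, which had a different make-up of cells. In monocytes, Ccl2 had a ratio of -2.57 on adding anti-PD-L1 to no inhibitor, 1.43 on adding it to 2DG and 0.79 on adding it to 2FF. Monocyte Ccl7 had -1.91 without an inhibitor, 1.37 with 2DG and 0.89 with 2FF. Monocyte Ccl12 had -1.31, 1.05 and 1.01 in the same order. With clusters weighted alike the monocyte ratios were -1.58, 1.11 and 0.40 for Ccl2, -0.50, 0.90 and 0.37 for Ccl7 and -0.60, 0.56 and 0.74 for Ccl12, so that none of Ccl7 or Ccl12 was past 2-fold.

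In dendritic cells, Ccl2 had -2.06 without an inhibitor, 1.81 with 2DG and 0.64 with 2FF. Ccl7 there had -1.10, 1.23 and 0.53, and Ccl9 had -1.07, 1.30 and 0.18. In neutrophils Ccl2 had -1.83, 1.63 and 0.04. The values near 0 with 2FF, for Ccl9 in dendritic cells and Ccl2 in neutrophils, lie within the 2-fold limit. With clusters weighted alike, dendritic cell Ccl2 had -2.23, 1.35 and 0.61, dendritic cell Ccl9 -1.07, 1.26 and 0.37, and neutrophil Ccl2 -2.82, 0.63 and -0.02, while dendritic cell Ccl7 had too few UMIs without an inhibitor and with 2DG.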

How the results depend on the processing

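No paired analysis was possible because each group is 1 library, and for the same reason no replicate could be left out. Of 76 pairs past 2-fold among 210, 47 stayed past it under each of 10 alternatives that gave a value, and 4 changed sign under at least 1. Counts of pairs that moved by over 1.5 times were, for the 2FF combination against anti-PD-L1, 6 in place of 10 without the 1% of cells with the most UMIs of the member. For the 2DG combination against 2DG it was 4 in place of 8 with Leiden clusters for the gate. For the 2FF combination against 2FF, the main count of 2 became 1 with a stricter gate or without doublet-like cells, 6 with Leiden clusters and 4 without the top 1% of cells. With clusters weighted alike, added after the data were seen, the counts were 10 in place of 20 for 2DG against control, 8 in place of 13 for anti-PD-L1 against control, 3 in place of 8 for the 2DG combination against 2DG and 1 in place of 2 for the 2FF combination against 2FF. That alternative kept 39 of 69 pairs past 2-fold the same way and turned the sign of 9. These were, for 2DG against control, monocyte Ccl24 (0.18), Ccl6 (0.29) and Ccl9 (0.06), dendritic cell Ccl24 (2.16) and neutrophil Ccl2 (0.31) and Ccl24 (0.29). The others were monocyte Ccl7 for 2FF against control (0.35), neutrophil Ccl9 for anti-PD-L1 against control (0.37) and dendritic cell Ccl24 for the 2DG combination against 2DG (-0.25). The other 10 alternatives turned dendritic cell Ccl24 for 2DG against control (1.51 with the stricter gate, 0.74 with Leiden clusters, 0.97 without the top 1% of cells). They also turned neutrophil Ccl24 for 2FF against control (-0.75 with the stricter gate, -0.25 without doublet-like cells, -0.33 with cells weighted equally, -0.30 thinned). The remaining 2 were dendritic cell Ccl8 for 2FF against control (-0.28 without doublet-like cells) and dendritic cell Ccl7 for anti-PD-L1 against control (0.08 with the stricter gate). The cause of these changes was not tested beyond the removal of cells that each alternative makes. The median log2 ratio of all genes was 0.133 in monocytes for 2DG against control, 0.114 for anti-PD-L1 against control, 0.148 in neutrophils for 2FF against control and -0.11 in neutrophils for the 2FF combination against 2FF. Centring on it changed the sign of no pair past 2-fold. The counts became 17 in place of 16 for 2FF against control and 14 in place of 13 for anti-PD-L1 against control. They became 11 in place of 10 for the 2FF combination against anti-PD-L1 and 9 in place of 8 for the 2DG combination against 2DG. Depth limits neutrophils most, with median UMIs of 2518 to 3786 a cell.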

Other observations

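The tumor cell gate held 0 cells in the control, 10 with 2DG, 16 with 2FF, 2 with anti-PD-L1, 5 with the 2DG combination and 12 with the 2FF combination. Of these cells 7 with 2DG, 8 with 2FF, 2 with anti-PD-L1, 4 with the 2DG combination and 9 with the 2FF combination were doublet-like, and their levels are not given. B cells, which are not known as a main source of these ligands, held 39.5 to 233 CPM of Ccl6 with the highest value in the control, and their Ccl8 was 0 in the control and 2.99 to 18.8 CPM in the treated libraries. NK cells held 69.7 CPM of Ccl8 and 74.4 CPM of Ccl24 with 2FF, and at most 9.95 CPM of Ccl8 and 19.6 CPM of Ccl24 in the other libraries. With 2FF 1 NK cell held 85 of 89 Ccl8 UMIs and 1 cell 91 of 95 Ccl24 UMIs. In the 2FF library Ccl8 was 207 CPM in mature dendritic cells, from 314 UMIs in 13 of 165 cells. Of the 360 Ccl8 UMIs of all dendritic cells of that library 1 cell held 302, and the ratio against control was 2.54, or -0.28 without doublet-like cells.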
